A study of Solanum lycopersicum with 36 samples.

Results

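The genes described here are the 100 genes with the widest gap between mutant and WT roots in an RNA-Seq experiment on tomato (*Solanum lycopersicum*) plants with a CRISPR mutation in *SDG33* or in *SDG34*. They were taken from 35872 listed genes and miRNA loci. For every gene, the gap was the lowest log2(normalized value + 1) of the 12 *sdg33* and *sdg34* root libraries minus the highest of the 6 WT root libraries, and the 100 largest gaps were kept. Since the root values of both genotypes chose these genes, their root difference between mutants and WT is a description and was given no test. The shoot values and the position in the genome were not part of the rule. It did not compare +N with -N or one mutant with the other, but it used all 18 root libraries, so these root contrasts are not independent of it. A gene cannot be chosen if any 1 mutant root library, at -N or +N, is close to or below any 1 WT root library.

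Libraries came from the *sdg33* and *sdg34* lines and from WT, cultivar Castlemart II, with each organ sampled with N (+N) and without N (-N), in 12 groups of 3 libraries. Each mutant genotype was 1 CRISPR line, so an effect of the mutation and any other difference between that line and WT cannot be told apart. All plants grew in hydroponic medium that was aerated for 1 hour a day. After 2 weeks in complete medium they were starved of N for 2 days. They then spent 5 hours in +N or -N medium. The +N medium held 1.2 mM KNO3, 0.8 mM Ca(NO3)2 and 0.2 mM NH4H2PO4. The -N medium held sulfate and phosphate salts of potassium and calcium in place of these. Each library was made from 3 pooled plants.

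*SDG33* and *SDG34* encode SET domain proteins, a family of enzymes that methylate histone tails. Their Arabidopsis homolog, SDG8, methylates lysine 36 of histone H3 over transcribed genes, a mark that in plants accompanies active transcription. Roots take up nitrate, sense it and change the transcription of many genes within hours of its return. Several of the genes below have Arabidopsis homologs that rise when oxygen is short, a state in which group VII ethylene response factors escape degradation and switch on genes of fermentation and oxygen sensing.

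The label of a gene set that is on in the mutants and low in WT fitted only some of the 100 genes. Their mean WT root value, in normalized counts that the authors scaled so that every library holds the same set of values, was under 10 for 14 genes, from 10 to 100 for 37 and at least 100 for 49, of which 15 reached 500. Only 2 of the 100 were listed at 0 in all 6 WT root libraries, the calmodulin-binding protein gene *Solyc08g062930.2* and the protodermal factor gene *Solyc10g007800.3*. The median over the 100 genes was 99.2 for the WT root mean and 1311 for the mutant root mean, and 59 genes had a mutant mean above 1000. The gap ranged from 4.35, which is 20.45-fold between the lowest mutant and the highest WT library, to 0.83, and was at least 2 for 31 genes. Averaged over -N and +N, the median root difference from WT was 3.13 in *sdg33* and 2.93 in *sdg34* (log2), against medians of -0.01 and -0.02 over all genes tested.

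Summed over the 100 genes, the normalized values of a WT root library came to between 22667 and 25259, or at most 0.128% of the library's total. The sum was 144048 to 214141 in -N *sdg33* roots and 306016 to 354077 in +N *sdg33* roots. In *sdg34* roots it was 112804 to 147228 at -N and 343092 to 377092 at +N, the last being 1.92% of the total. The +N sums thus lay above all -N sums in each mutant, while those of WT overlapped. In whole roots, more cells of a type that uses a gene and more RNA of that gene per cell cannot be told apart. The summed value of 6 photosystem and light-harvesting genes, which mark green tissue, was 194 to 252 in -N and 243 to 343 in +N WT roots, 350 to 359 and 512 to 626 in *sdg33* roots and 285 to 350 and 421 to 565 in *sdg34* roots. This sum was higher at +N than at -N without overlap in each mutant and overlapped in WT, and at the same N level every mutant library lay above every WT library. It was 17855 to 97908 in shoots, and its part in the results was not tested.

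**Figure D1:**
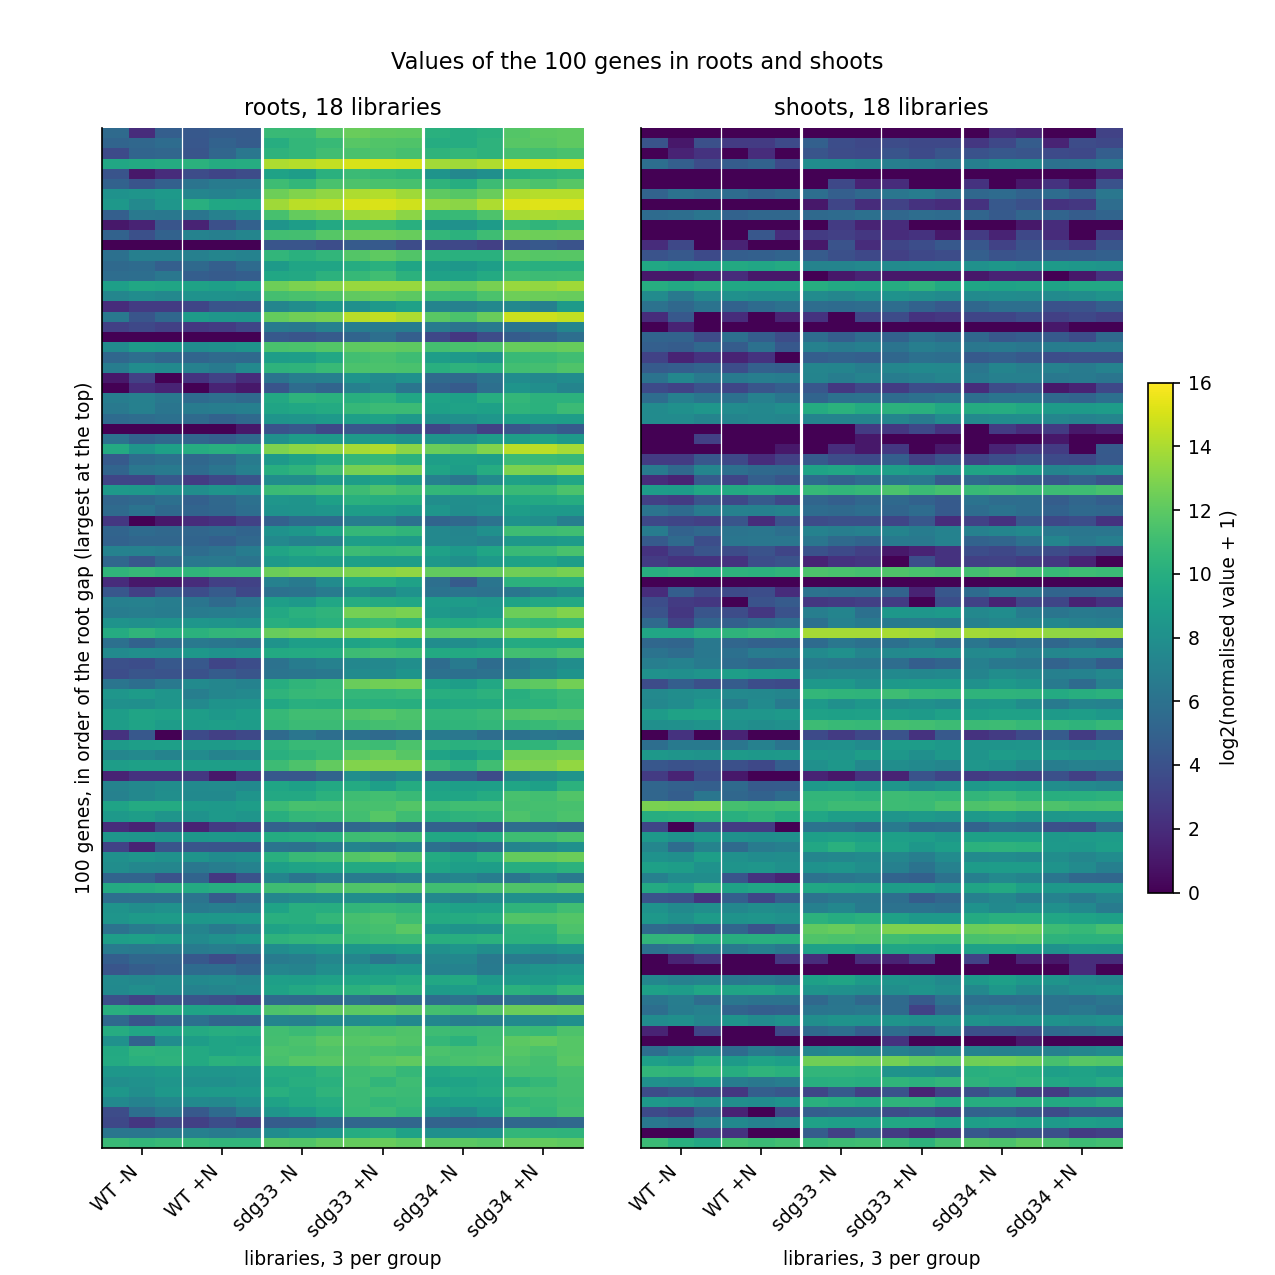
Normalized values of the 100 genes, as log2(value + 1) in colour, in the 18 root libraries (left) and the 18 shoot libraries (right), with 3 libraries per group and genes in order of their root gap from 4.35 at the top to 0.83 at the bottom. Mutant root libraries are brighter than WT root libraries in every line, as the rule requires, and brighter still at +N in most. In shoots, all mutant libraries lie above all WT libraries in 29 lines and below them in 4, and 67 overlap.

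The *SDG33* transcript (*Solyc04g057880.3*) had mean root values of 504 and 426.7 in WT and 413.3 and 342 in *sdg33*, at -N and +N (n = 3 each). For *SDG34* (*Solyc06g059960.3*), the means were 178 and 144.3 in roots of WT and 116.3 and 127.3 in those of *sdg34*. Both transcripts were therefore still present in the mutant lines, and since a small CRISPR lesion need not remove a transcript, their level checks the labels only weakly.

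Among the 100 genes, 9 had an Arabidopsis homolog on a list of 36 genes that rise at low oxygen in that species, of 21 tomato genes with such a homolog in the study's annotated lists. Those lists hold genes that the study picked on these same samples, and they describe 69 of the 100 genes, so the count is a description. A pair of genes are annotated as 2-aminoethanethiol dioxygenase, whose Arabidopsis counterparts, the plant cysteine oxidases, use oxygen to tag group VII ethylene response factors for degradation. For the first, *Solyc03g113130.3* (gap 4.21), root values were 34, 40 and 50 in -N WT, 19, 31 and 24 in +N WT, 1008, 1572 and 1795 in -N *sdg33*, 3622, 3202 and 3047 in +N *sdg33*, 942, 942 and 1297 in -N *sdg34* and 3617, 3721 and 4224 in +N *sdg34*. Every mutant library was thus far above every WT library, and the +N libraries of each mutant lay above its -N libraries. The second, *Solyc02g087740.3* (gap 2.56) had 210 to 412 over the 6 WT libraries and 2428 to 4934 over the 12 mutant libraries. *Solyc02g067440.3*, annotated as a giant cell protein but with the same Arabidopsis homolog, had 88, 18 and 40 in -N WT, 448, 340 and 324 in +N WT, and between 2856 and 28517 in the mutants.

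*Solyc09g075420.3* encodes ethylene response factor E.1, whose Arabidopsis homolog is a group VII factor. Its root values were 530, 746 and 684 in -N WT, 588, 516 and 663 in +N WT, 5548, 7370 and 9012 in -N *sdg33*, 11797, 11868 and 11940 in +N *sdg33*, 5433, 4862 and 6847 in -N *sdg34* and 11868, 10866 and 13592 in +N *sdg34*. WT libraries did not overlap with mutant libraries, although the gene was well expressed in WT. *Solyc07g026650.3* encodes 1-aminocyclopropane-1-carboxylate oxidase 5, an enzyme of the last, oxygen-requiring step of ethylene synthesis. It had 376, 186 and 334 in -N WT, 1090, 724 and 710 in +N WT, 13592, 20934 and 22676 in -N *sdg33*, 33706, 35724 and 29041 in +N *sdg33*, 10907, 9517 and 16912 in -N *sdg34* and 36307, 37498 and 38944 in +N *sdg34*. It was among the 5 genes whose mutant root mean exceeded 10000, and +N was higher than -N in all 3 genotypes without overlap.

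A further homolog of an Arabidopsis low-oxygen gene, *Solyc04g080540.2* (gap 3.51, annotated as a putative DNA polymerase subunit), had the highest mutant root mean of the 100 genes, 26040, with 728 to 1186 in WT and 13484 to 36307 in the mutants. *Solyc02g090120.1* (gap 3.01) had 14 to 31 in -N WT, 120 to 156 in +N WT and 1262 to 6090 in the mutants. The remaining 2 of the 9 had small gaps, 0.96 for *Solyc03g006490.3* and 0.88 for *Solyc08g077480.3*. The 12 genes with such homologs outside the 100 included 7 that were higher than WT in roots at an adjusted p under 0.05 (limma) in each mutant and 0 that were lower. As the study picked these genes on the same samples, the count is no independent evidence of their direction. Both mutants are set against the same WT libraries here and below. One was the non-symbiotic hemoglobin gene *Solyc07g008240.3*, which differed by 2.96 and 2.79 (log2) from WT in *sdg33* and *sdg34*. Of the classical fermentation genes, pyruvate decarboxylase *Solyc02g077240.3* differed by 1.42 and 1.05 (adjusted p = 0.00242 and 0.0256). Of 4 alcohol dehydrogenase genes, *Solyc05g021530.2* differed by 0.55 in *sdg33* and 0.84 in *sdg34* (adjusted p = 0.158 and 0.0232), and the others, *Solyc05g021540.2*, *Solyc05g021555.1* and *Solyc05g021570.2*, by 0.08 to 0.38 and by 0.49 to 0.72, with adjusted p of at least 0.427 and 0.191 (limma).

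The gene at the head of the list, *Solyc10g050990.1* (gap 4.35), has no description in the sources used here. It had 46, 3 and 26 in -N WT roots, 20, 24 and 23 in +N WT, 1840, 1762 and 3304 in -N *sdg33*, 5140, 4448 and 4236 in +N *sdg33*, 1148, 960 and 1132 in -N *sdg34* and 3340, 3994 and 4139 in +N *sdg34*. Its values were low and scattered in WT and separated by N in each mutant. *Solyc05g047530.3* encodes trans-cinnamate 4-monooxygenase, an early enzyme of the phenylpropanoid pathway that leads to lignin and flavonoids, and it went from 17 to 102 in WT to 997 to 3625 in the mutants. *Solyc01g099620.3*, a respiratory burst oxidase gene of the family that makes superoxide at the cell surface, had 320 to 1094 in WT and 4326 to 20934 in the mutants.

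Of the 10 transcription factor genes by description, a pair of bHLH genes share one Arabidopsis homolog, bHLH93. *Solyc00g050430.3* had 285, 328 and 378 in -N WT roots and 154, 138 and 166 in +N WT, against 3572 to 10296 in -N mutant roots and 13379 to 19084 in +N mutant roots. *Solyc12g088130.2* followed the same order at a lower level, with 23 to 81 in WT and 566 to 2190 in the mutants. *Solyc06g083590.3* is annotated as *ABI3*, a B3 domain regulator known from seed maturation, and had 28 to 64 in WT and 259 to 606 in the mutants. *Solyc01g068410.3* encodes SlPIN5, whose Arabidopsis homolog carries auxin across the endoplasmic reticulum membrane. It was the only gene of the 100 on the auxin list of 47 described genes, with 58 to 154 in WT and 1128 to 4254 in the mutants.

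At the lower end, the last genes taken were *Solyc02g033060.3* (gap 0.84), *Solyc09g008560.3* (0.83) and *Solyc01g081060.3* (0.83). The last of them had 1502 to 1806 in WT roots and 3202 to 5197 in mutant roots, so it was abundant in every library. The first genes left out were *Solyc09g089550.3* (gap 0.82, 76 to 90 in WT and 160 to 394 in the mutants), *Solyc01g109800.2* (0.82) and *Solyc11g005300.2* (0.82). Nothing in the values sets the 100 apart at this limit, since 976 genes had a gap above 0.

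Chromosome and order were read from the gene identifiers, because no coordinates of these gene models were used here. Chromosome 7 held 15 of the 100 genes, where a spread like that of all genes tested in roots would give 7.5. Chromosome 11 held 1, *Solyc11g027840.2*, where 6.9 would be even. Chromosome 10 held 10 (6.7 if even) and chromosome 1 held 10 (12.6 if even), and 2 genes carried the number for unplaced sequence. The remaining chromosomes held between 5 and 12 each. None of these counts was tested.

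**Figure D2:**
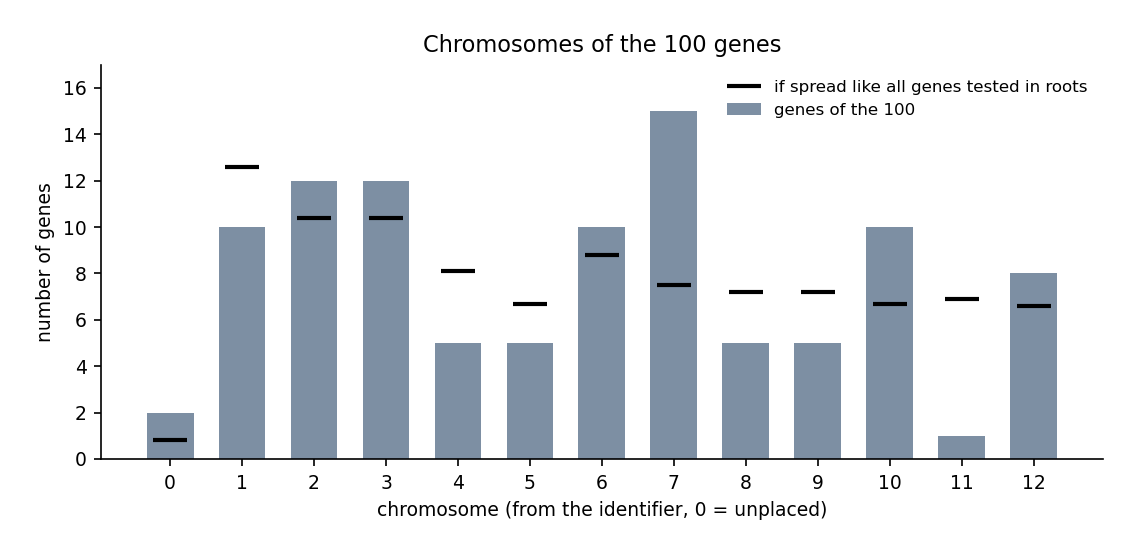
Number of the 100 genes on each chromosome (bars) and the number that a spread like that of all genes tested in roots would give (black marks). Chromosome 7 has 15 genes against 7.5 and chromosome 11 has 1 against 6.9.

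Part of the surplus on chromosome 7 came from one short stretch. From *Solyc07g054730.1* to *Solyc07g054810.1* the tables list 10 genes, and 7 of them were among the 100, which leaves 8 elsewhere on the chromosome. The stretch holds *Solyc07g054780.1* (gap 3.96) and *Solyc07g054730.1* (gap 0.89), both annotated as wound-responsive family proteins, a family of short plant proteins with little known function. For *Solyc07g054780.1*, root values were 11, 34 and 38 in -N WT, 18, 38 and 81 in +N WT, 1276, 1532 and 2140 in -N *sdg33*, 2764, 2896 and 2528 in +N *sdg33*, 1338, 1542 and 1312 in -N *sdg34* and 2542, 2418 and 2755 in +N *sdg34*. Its neighbours *Solyc07g054790.1* (gap 3.12) and *Solyc07g054800.1* (gap 1.42) had 1 to 30 and 1 to 8 in WT and 268 to 1786 and 23 to 1226 in the mutants.

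At the left of this block, *Solyc07g054730.1* was already high in WT, with 849 to 1308, and reached 2417 to 4374 in the mutants. The next gene, *Solyc07g054740.3*, did not follow, with group means between 679 and 861 in mutant roots and 720.3 and 684.7 in WT. It differed from WT by 0.12 (SE 0.07) in *sdg33* and by 0.09 (SE 0.08) in *sdg34* on the log2 scale, with adjusted p = 0.18 and 0.378 (limma). *Solyc07g054745.1* and *Solyc07g054750.1* missed the list because of their -N libraries. *Solyc07g054750.1* was listed at 0 or 1 in all WT libraries and at 10, 16 and 24 in -N *sdg33*, 1, 0 and 0 in -N *sdg34*, 440, 691 and 314 in +N *sdg33* and 416, 254 and 624 in +N *sdg34*. Its values above 24 were thus all from +N mutant roots. Beyond the block, *Solyc07g054830.3* had group means of 1014 to 1174 in all 6 root groups. Tandem genes may be near-identical copies among which reads cannot be placed with certainty, so the division of signal among the members of this stretch is uncertain.

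**Figure D3:**
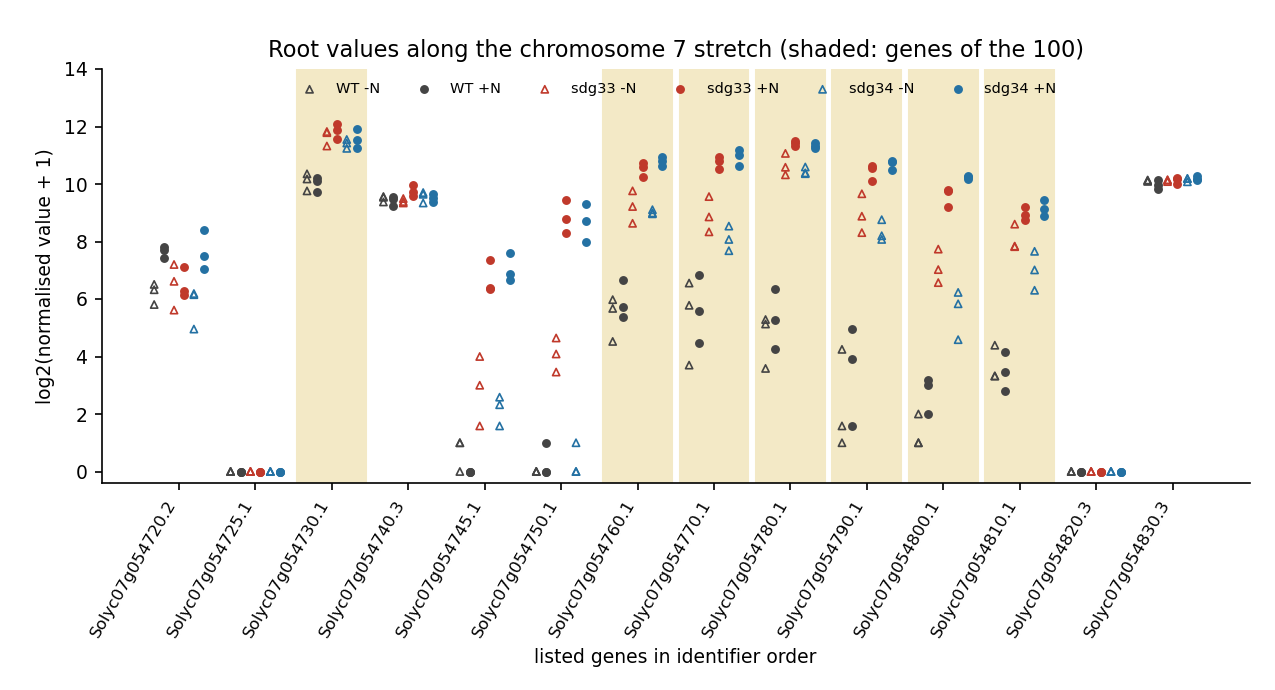
Root values, as log2(normalized value + 1), of the listed genes around the chromosome 7 block in identifier order, with 1 symbol per library, triangles for -N and circles for +N, and the genes of the 100 shaded. The 7 shaded genes separate WT from mutants in every library. *Solyc07g054745.1* does so by a smaller gap of 0.585 with low -N values, and *Solyc07g054750.1* does so in both mutants only at +N. *Solyc07g054740.3* and *Solyc07g054830.3* show similar values in all groups.

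In all, 18 of the 100 genes lay in 7 runs in which successive members were at most 1 listed gene apart. The run on chromosome 10 joined the head of the list to *Solyc10g050980.1* (gap 3.31), which had 1 to 17 in WT roots and 177 to 1891 in the mutants. The gene before this pair, *Solyc10g050970.1* (ethylene response factor D.4), stayed low, with group means of 0.667 and 1.33 in WT and 4 to 15.7 in the mutants. On chromosome 12, *Solyc12g010420.1* and *Solyc12g010430.1* are both annotated as NHL domain proteins, with 2 to 9 and 73 to 126 in WT roots against 20 to 58 and 539 to 1960 in the mutants. *Solyc12g005020.2* stood beside the protein kinase gene *Solyc12g005030.2*, *Solyc08g005525.1* beside *Solyc08g005530.2*, and the acyltransferase gene *Solyc05g025890.2* beside *Solyc05g025900.3*. The oxidase gene *Solyc07g026650.3* was 1 gene away from *Solyc07g026675.1*, a myb-like factor gene with 9 to 20 in WT and 49 to 236 in the mutants, and the gene between them, *Solyc07g026670.3*, differed from WT by 0.39 and 0.505 (log2).

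Genes next to the 100 that were not themselves members were called higher when the root difference from WT had an adjusted p under 0.05 (limma) and was at least 1 on the log2 scale in each mutant. Of 119 such neighbours tested, 17 (14.29%) were higher, where 3.32% of all genes tested outside the 100 were, the neighbours included. A gene near 0 in WT could enter these tests through mutant libraries only, as *Solyc07g054750.1*, one of the 17, did. The same filter held for all genes, and the counts are a description. At a difference of at least 2 they were 9 of 119, against 0.575%, and without a fold threshold 47 of 119, against 20.3%. The median difference over the neighbours on either side was 0.18 and 0.13, against 3.05 for the 100 genes themselves, so the typical neighbour changed little. Among the 17 were *Solyc01g107090.2* (3.66 and 3.04 in *sdg33* and *sdg34*), annotated like the adjoining member *Solyc01g107100.3* as a beta-1,4-xylosidase, a cell wall enzyme, and the F-box gene *Solyc07g007420.3* (3.12 and 2.75). A transcript that runs on into the next gene, or copies that share reads, would also place high values side by side, and neither was tested.

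The N comparison asked how these genes differed between +N and -N within each genotype. The rule treats +N and -N libraries alike and so sets no direction, but it limits which responses the chosen genes can show, and the shares over all genes are given for scale only. With limma on log2(value + 1) over the 18 root libraries, 64 of the 100 were higher at +N in *sdg33*, where 20.7% of all genes tested were, and 0 were lower, against 23.2%. In *sdg34*, 77 were higher (25.7% of all genes) and 1 was lower (27.1%). In WT, 18 were higher (21.8% of all genes) and 15 were lower (22.1%). Of the 100, 9 were under 10 in all WT root libraries and entered the fit only through mutant libraries. Others also needed mutant libraries to enter, because too few of their WT libraries reached 10. One was *Solyc10g083900.2*, with 5 to 10 in WT. The WT responses of such genes may be understated on this scale, so the WT counts and median are not on equal terms with those of the mutants. The median N response of the 100 genes was 0.80 in *sdg33*, 1.32 in *sdg34* and 0.04 in WT (log2), against -0.02 over all genes tested in each genotype. Of the 100, 60 were higher at +N in both mutants, where 17.5% of all genes were, and 37 had a response of at least 1 in both. The +N libraries lay wholly above the -N libraries for 69 genes in *sdg33*, 84 in *sdg34* and 18 in WT, and wholly below them for 16 in WT. For these counts and the 37, no share over all genes was taken, so they are a description.

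The difference between the mutant and the WT response depends on the rule most, because the rule holds every WT library below the mutants and favors genes that are low and even in WT. The counts that follow are therefore a description, and nothing is read from them against the shares of all genes. By limma's threshold the N response was larger than that of WT for 38 genes in *sdg33*, where 3.6% of all genes tested were, and smaller for 3, against 4.77%. In *sdg34* it was larger for 58 (7.46% of all genes) and smaller for 0 (9.67%). P-values here measure only the spread between these libraries of pooled plants.

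**Figure D4:**
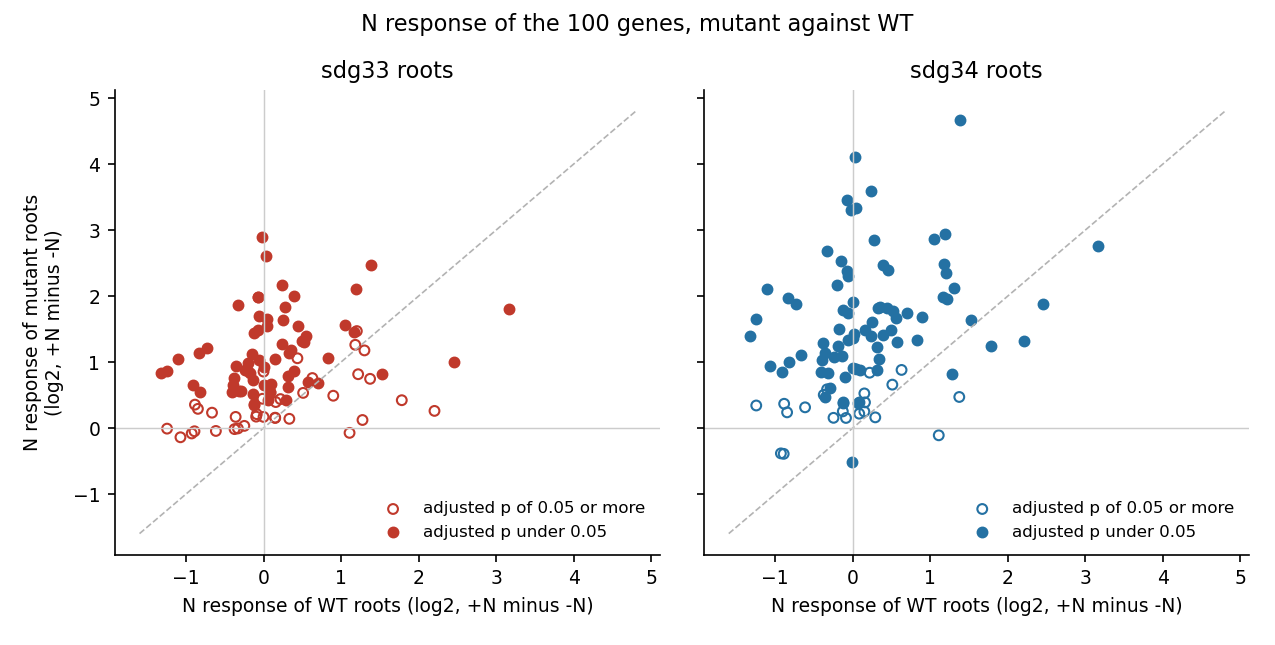
N response in roots (log2, +N minus -N, mean of 3 libraries against 3) of each of the 100 genes in *sdg33* (left) and *sdg34* (right) against that in WT, with filled circles for an adjusted p under 0.05 in the mutant and a dashed line of equal response. Most points lie above the line, with medians of 0.80 and 1.32 in the mutants and 0.04 in WT.

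Responses were largest for *Solyc07g054800.1* of the chromosome 7 stretch, *Solyc10g008400.1* and *Solyc01g087980.3*. The first had 1 to 3 in -N WT roots, 3 to 8 in +N WT, 23 to 212 in -N mutant roots and 582 to 1226 in +N mutant roots, with N responses of 2.47 (SE 0.41) in *sdg33* and 4.67 (SE 0.41) in *sdg34*. *Solyc10g008400.1* encodes a RING protein whose Arabidopsis homolog is a membrane-anchored ubiquitin ligase of the endoplasmic reticulum. Its root values were 106, 114 and 104 in -N WT, 101, 111 and 120 in +N WT, 795, 1120 and 1344 in -N *sdg33*, 6440, 6015 and 6986 in +N *sdg33*, 396, 306 and 404 in -N *sdg34* and 5433, 5782 and 8079 in +N *sdg34*. WT libraries thus overlapped between N conditions while those of the mutants were far apart. The N response was 0.03 (SE 0.17) in WT, 2.61 in *sdg33* (SE 0.17, adjusted p = 1.98e-09) and 4.11 in *sdg34* (SE 0.17, adjusted p = 3.82e-12). *Solyc07g065970.1*, a chaperone gene of the DnaJ family, had 35 to 124 in the 6 WT libraries, 470 to 2298 at -N in the mutants and 6098 to 10028 at +N. *Solyc01g087980.3*, without a description, had 1 to 5 in WT, 12 to 35 at -N and 128 to 305 at +N in the mutants.

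In some genes the response of WT ran the other way. For the bHLH gene *Solyc00g050430.3* it was -1.10 (SE 0.17, adjusted p = 6.74e-05) in WT, 1.04 in *sdg33* (SE 0.17, adjusted p = 1.17e-04) and 2.11 in *sdg34* (SE 0.17, adjusted p = 2.47e-08). For the dioxygenase gene *Solyc03g113130.3* it was -0.73, 1.21 and 1.87 in the same order, and the difference from the WT response was 1.94 in *sdg33* (SE 0.28) and 2.61 in *sdg34* (SE 0.28). Other genes already responded in WT. *Solyc02g090120.1* had a response of 2.46 in WT and of 1.00 in *sdg33*, and it was among the 3 genes whose response in *sdg33* was smaller than in WT, with a difference of -1.46 (SE 0.34). The monooxygenase gene *Solyc05g047530.3* was another, with 1.78 in WT, 0.42 in *sdg33* and a difference of -1.36 (SE 0.36). The smallest responses that still passed in both mutants were those of *Solyc05g025900.3*, *Solyc05g011980.3* and *Solyc03g032210.3*, between 0.36 and 0.51.

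All 9 genes with an Arabidopsis low-oxygen homolog were higher at +N in each mutant, with medians of 0.83 in *sdg33* and 1.64 in *sdg34*. Of the 12 with such homologs outside the 100, 9 and 8 were higher and 0 lower. For members, these shares and those of the other lists can be read beside the 64 and 77 of all 100 genes. For genes outside the 100, the shares over all genes tested were 20.7% higher and 23.2% lower in *sdg33*. In *sdg34* they were 25.7% and 27.1%. The listed genes were picked by the study on these same samples, so the counts outside the 100 are a description too. Of the 10 transcription factor genes, 6 were higher in each mutant, and of the 10 genes for signalling and protein turnover, 8 in *sdg33* and 10 in *sdg34*. Of the 10 oxidoreductase genes, 6 and 9 were higher, and the 6 defence and stress genes had 4 and 4. None of these members was lower at +N in either mutant, and a gene can be on more than 1 list. Of the 127 transcription factor genes tested outside the 100, 20 were higher and 33 lower in *sdg33*, and 29 and 45 in *sdg34*. Among 181 signalling genes outside, 42 were higher and 33 lower in *sdg33*, and 45 and 42 in *sdg34*. Among 118 oxidoreductase genes outside, 15 were higher and 41 lower in *sdg33*, and 21 and 46 in *sdg34*. Among 55 defence and stress genes outside, 17 were higher and 12 lower in *sdg33*, and 20 and 12 in *sdg34*.

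Averaged over N, 0 of the 100 genes were higher and 3 lower in *sdg34* than in *sdg33* roots, where 0.457% and 0.521% of all genes tested were. The 3 were *Solyc10g050990.1* at -0.65 (SE 0.14, adjusted p = 0.0447), the RING gene *Solyc10g008400.1* at -0.78 (SE 0.13, adjusted p = 0.0187) and *Solyc03g113620.3* at -0.47 (SE 0.09, adjusted p = 0.0291, limma). The difference was negative for 84 of the 100 genes, with a median of -0.18 against -0.01 over all genes. The count of 3 depended on single libraries. It was 0 or 1 without replicate 2 or 3 of +N *sdg33* roots, replicate 1 or 2 of -N *sdg34* roots or replicate 1 or 2 of +N *sdg34* roots, and 16 without replicate 3 of +N *sdg34* roots. The N response was larger in *sdg34* than in *sdg33* for 83 genes, with a median difference of 0.45, but only the F-box gene *Solyc02g092290.3* passed the test, where 0.0492% of all genes did. Its N response differed by 1.69 (SE 0.26, adjusted p = 0.0441), and this count moved to between 0 and 12 without any 1 of the 12 mutant root libraries other than replicate 2 of +N *sdg33* and replicate 3 of +N *sdg34*. It was 12 without replicate 3 of -N *sdg34* and 7 without replicate 1 of -N *sdg33*.

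Shoot libraries took no part in the choice of these genes. In shoots, 14 of the 100 were too low to be tested in either mutant, and 10 stayed under a value of 10 in all 18 libraries. In the remainder, 45 of 82 genes tested were higher in *sdg33* than in WT, where 31.1% of all genes tested were, and 12 were lower, against 27%. In *sdg34*, 50 of 85 were higher (27.9% of all genes) and 11 were lower (24.9%). Some genes entered these tests only through their mutant libraries. Of the 74 that reached a value of 10 in 3 or more WT shoot libraries, 39 were higher and 12 lower in *sdg33*, and 40 and 11 in *sdg34*, with medians of 0.73 and 0.71 (log2). Of all 100 genes, 29 had every mutant shoot library above every WT shoot library, 4 had every one below and 67 overlapped. Over the genes tested in both shoot fits, the shares above and below were 7.9% and 8.54%. Only 81 of the 100 were tested in both fits, so these shares are not on equal terms with the counts and are given for scale only. The summed shoot values of the green tissue markers were 17855 to 60576 in WT and 61141 to 97908 in the mutants, and their part in these counts was not tested.

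**Figure D5:**
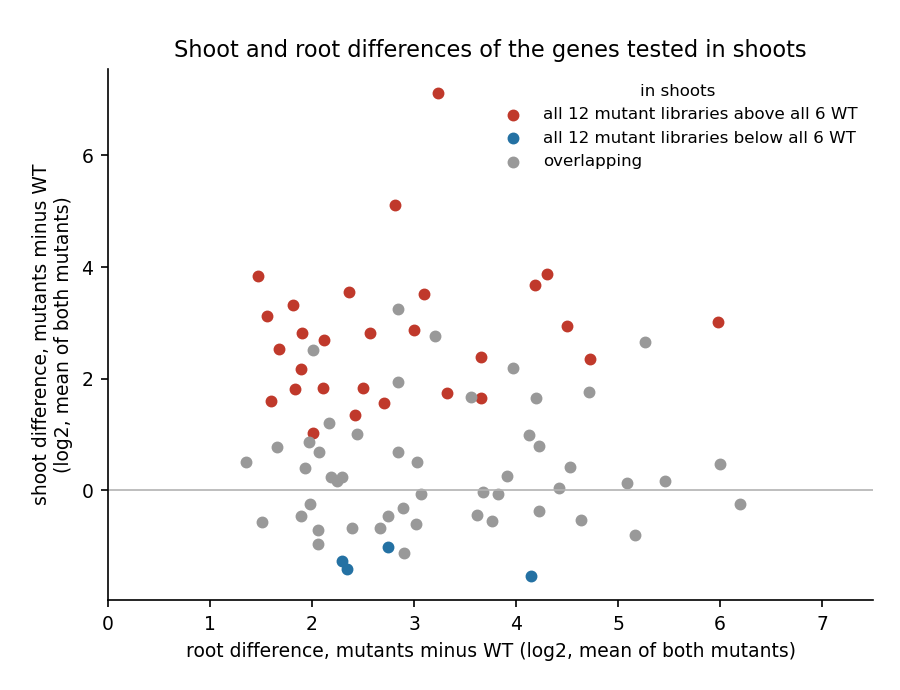
Shoot difference against root difference between mutants and WT (log2, mean of both mutants and of -N and +N) for the genes tested in both shoot fits, coloured by whether the 12 mutant and 6 WT shoot libraries overlap. Shoot differences run from -1.54 to above 7. In the separate fit of each mutant, which is not plotted, the shoot difference was positive for 58 of 82 genes tested in *sdg33* and 62 of 85 in *sdg34*. All root differences are positive by choice.

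The largest shoot difference was that of *Solyc03g006490.3*, annotated as a glutaminase domain protein, whose Arabidopsis homolog is on the low-oxygen list. Its shoot values were 46, 38 and 26 in -N WT, 36, 15 and 34 in +N WT, 4428, 4964 and 3646 in -N *sdg33*, 7838, 7579 and 7370 in +N *sdg33*, 5450, 5939 and 5329 in -N *sdg34* and 2029, 1694 and 2503 in +N *sdg34*. Mutant and WT shoot libraries were thus far apart, and farther than in roots, where the gene had 65 to 151 in WT and 294 to 3888 in the mutants. The shoot difference was 7.49 in *sdg33* (SE 0.20, adjusted p = 2.57e-12) and 6.73 in *sdg34* (SE 0.20, adjusted p = 2.71e-12). The serine-rich protein gene *Solyc12g009880.1* had 27 to 76 in WT shoots and 1054 to 1972 in mutant shoots. *Solyc03g031890.3*, named for oxidative stress 3 of Arabidopsis, had 11 to 27 in WT shoots and 47 to 448 in mutant shoots, with the lowest mutant values in +N *sdg34*.

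Other genes of the 100 were lower in mutant shoots. *Solyc05g025890.2*, an acyltransferase gene, had 28 to 48 in WT roots and 352 to 1203 in mutant roots, but in shoots 732, 565 and 588 in -N WT, 845, 700 and 864 in +N WT, and between 139 and 422 in the mutants. Its shoot difference was -1.96 in *sdg33* (SE 0.11, adjusted p = 2.67e-09) and -1.12 in *sdg34* (SE 0.11, adjusted p = 1.2e-06). Its neighbour *Solyc05g025900.3* was higher in mutant shoots, with 228 to 298 in WT and 1354 to 2518 in the mutants and differences of 2.95 in *sdg33* (SE 0.09, adjusted p = 7.89e-12) and 2.69 in *sdg34* (SE 0.09, adjusted p = 1.06e-11). The patatin gene *Solyc10g080690.2*, of a family of lipid acyl hydrolases, had 995 to 1420 in WT shoots and 322 to 696 in mutant shoots, and the RING gene *Solyc02g082420.3* had 467 to 718 and 174 to 350. For both, mutant and WT libraries did not overlap, in the opposite order to roots.

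Several genes with the widest root gaps were near 0 in shoots. *Solyc10g050990.1* was listed at 0 in all WT and *sdg33* shoot libraries and at up to 8 in *sdg34*, and *Solyc07g054800.1* was at 0 in all 18. The oxidase gene *Solyc07g026650.3* was listed at 0 in all 6 WT shoot libraries and at 1 to 52 in the mutants, against at least 9517 in mutant roots. The ethylene response factor gene *Solyc09g075420.3* was well expressed, with 706 to 1015 in WT shoots and 586 to 1274 in mutant shoots, and differed by 0.17 in *sdg33* (SE 0.11, adjusted p = 0.216) and -0.30 in *sdg34* (SE 0.09, adjusted p = 0.0143). The pair of dioxygenase genes parted, since *Solyc03g113130.3* had at most 29 in any shoot library and *Solyc02g087740.3* had 20 to 61 in WT and 70 to 130 in the mutants. *SlPIN5* had 11 to 34 in WT shoots and 7 to 29 in mutant shoots. The 3 most abundant genes that passed in neither mutant had similar shoot values in WT and mutants. These were *Solyc02g078460.3* (332 to 626 in WT, 370 to 568 in the mutants), *Solyc02g092290.3* (299 to 417, 253 to 476) and *Solyc08g063045.1* (152 to 309, 235 to 304). In the chromosome 7 stretch, *Solyc07g054730.1* had 394 to 974 in WT shoots and 2586 to 6560 in mutant shoots, while the other members there had at most 82. By mean value, 36 of the 100 genes were higher in shoots than in roots of WT, and 13 in the mutants. The rule chose low WT and high mutant root values, so the smaller number in the mutants was favored in advance.

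In *sdg34* shoots, more of the genes were lower than higher at +N. In *sdg33* shoots, 7 of 86 genes tested were higher at +N (12.7% of all genes tested) and 12 lower (13.8%), and in *sdg34* shoots 1 was higher (11.1%) and 22 lower (11%). The median shoot response was -0.04 in *sdg33* and -0.46 in *sdg34*, against -0.05 and -0.04 over all genes. The count of 7 was 3 or 4 without replicate 2 or 3 of -N or of +N *sdg33* shoots. In WT shoots, 7 were higher (15% of all genes) and 12 lower (15.4%). *Solyc08g077480.3* is a case of opposite order in the organs, since its root values rose at +N in both mutants, from between 788 and 1412 to between 1588 and 2564, while its shoot values fell, from between 1360 and 1493 to between 209 and 300 in *sdg33* and from between 1048 and 1258 to between 455 and 596 in *sdg34*. The difference between the organs was not tested.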

How the data were processed

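RNA-Seq libraries of roots and shoots of WT, *sdg33* and *sdg34* under -N and +N (12 groups of 3) were grouped by their deposited labels. According to the study's methods, the authors aligned reads with BBmap to the tomato genome and counted them with featureCounts on ITAG 3.2 gene models and miRNA loci. The deposited values, treated here as a score, had been brought by the authors from gene counts to one common distribution (full-quantile normalization) and rounded to whole numbers. All 36 columns hold the same sorted values, with a total of 19667069, so the depth of each library is unknown and precision was taken from the spread between replicates. No pair of libraries held identical values in every gene.

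Values were analyzed as log2(value + 1), on which fold changes of low genes are understated, with limma 3.58.1 in R 4.3.3 (lmFit, eBayes with trend). Genes had to reach a value of 10 in 3 or more of the fitted libraries. Genotype differences came from the 12 libraries of a mutant and WT in 1 organ, averaged over N. N responses came from the 18 libraries of an organ, and the difference between the mutants from their 12 root libraries. All genes were fitted and p-values adjusted by the Benjamini-Hochberg method over all genes tested, with a threshold of 0.05. The tests of N responses against WT and between the mutants were added after seeing the data. Simulated data with 200 altered genes were used to check the tests in 12 contrasts. Per contrast, 63.64% to 95.45% of genes altered by 1 (log2) were found, and at least 95.52% of those altered by 3. There were at most 17 false calls in a contrast. With 3 against 3 libraries an exact two-sided permutation test of 1 gene cannot go below 0.1.

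Descriptions and Arabidopsis homologs came from the study's supplementary lists, part of which was at hand in shortened form. Lists of auxin, ethylene, low oxygen, transcription factor, oxidoreductase, transporter, cell wall, signalling and defence genes were made from words in these descriptions or from homologs. The members and lists were chosen with earlier results of these data known. Named genes were drawn from fixed sets, not every gene of which is printed. The sets were the 12 widest gaps, 3 genes on each side of the limit of 100, and members in runs. They included the 3 largest and 3 smallest root N responses past the threshold. Also included were the 3 largest shoot differences in each direction, the 3 most abundant without one and the 2 largest differences between the mutants in each direction. Members on the auxin, ethylene and low oxygen lists, and *SDG33* and *SDG34*, completed them. *Solyc07g065970.1*, *Solyc01g099620.3*, *Solyc06g083590.3*, *Solyc12g088130.2*, *Solyc10g007800.3*, *Solyc03g113620.3*, *Solyc11g027840.2*, *Solyc07g054730.1* and the non-member neighbours were named after their values were seen. The reference table used for this work held 0 identifiers of these gene models, so neither coordinates nor sequences are given. Pseudocounts, filters, scaling, samples in the fit, a replicate block, each library left out and +N shoots alone were tried as alternatives.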

Additional observations from a re-analysis of the deposited data

Results flagged for a closer look

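In 4 of the 100 genes all 12 mutant shoot libraries lay below all 6 WT shoot libraries, whereas in roots all 12 lay above all 6. The mean shoot difference over both mutants was -1.54 for the acyltransferase gene *Solyc05g025890.2*, -1.02 for the 1,4-beta-D-glucanase gene *Solyc11g027840.2*, -1.42 for the patatin gene *Solyc10g080690.2* and -1.26 for the RING gene *Solyc02g082420.3* (log2). *Solyc11g027840.2* had 246 to 492 in WT shoots and 124 to 224 in mutant shoots, but 13 to 24 in WT roots and 58 to 304 in mutant roots. The difference between the organs was not tested.

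The N response of 1 of the 100 genes differed between *sdg34* and *sdg33* roots by limma's test of that difference. This F-box gene, *Solyc02g092290.3*, had 617, 452 and 700 in -N *sdg34* and 5578, 5886 and 6219 in +N *sdg34*, against 1081, 1371 and 1695 in -N *sdg33* and 4174, 5189 and 3626 in +N *sdg33*. The difference was 1.69 on the log2 scale (SE 0.26, adjusted p = 0.0441).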

How the results depend on the processing

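Counts of the 100 genes that moved by over 1.5 times were small ones. The 1 gene lower at +N in *sdg34* roots became 0 with no filter, with median-of-ratios scaling, with the replicate block and with other libraries in the fit, and the 1 higher at +N in *sdg34* shoots became 2 with a pseudocount of 10. The 1 gene whose N response was larger in *sdg34* than in *sdg33* became 0 with no filter and with median-of-ratios scaling, and 2 with other libraries in the fit. Of the neighbours, 47 were higher without a fold threshold and 9 at a log2 threshold of 2, against 17. The causes were not tested.

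Replicate numbers were shared by all groups, but same-numbered root libraries deviated together only weakly (correlations of -0.141 to 0.257, median 0.039, 7 of 45 over 0.1; in shoots -0.113 to 0.185, 5 of 45), so they were not treated as pairs. With the replicate block, the members lower in *sdg34* than in *sdg33* roots were 10 in place of 3, and those higher at +N were 67 in *sdg33* and 80 in *sdg34*.

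Without 1 library at a time, members higher at +N in roots were 48 to 68 in *sdg33* and 72 to 79 in *sdg34*, and those lower 0 to 0 and 0 to 1. Responses larger than in WT were 29 to 43 in *sdg33* and 53 to 59 in *sdg34*, and larger in *sdg34* than in *sdg33* 0 to 12, smaller 0 to 1. Members lower in *sdg34* than *sdg33* roots were 0 to 16. In shoots, those above WT were 41 to 45 in *sdg33* and 45 to 48 in *sdg34*, those below 11 to 13 and 9 to 13. Those higher at +N in shoots were 3 to 8 in *sdg33* and 0 to 2 in *sdg34*, those lower 8 to 14 and 16 to 25. In +N shoots alone, a choice made after seeing the data, 41 and 38 were above WT. Among 3686 comparisons of single genes' values, 91 lost the threshold, 53 gained it and 0 reversed. Since depth is unknown, counting error could not be separated from the spread between libraries, and genes near 0 are least certain.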
